A study of Mus musculus with 18 samples.

Results

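Adipocyte progenitors are the fibroblast-like stromal cells of adipose tissue from which new fat cells arise, and the 10 genes described here are the ones commonly used to recognise them. They were the PDGF receptors Pdgfra and Pdgfrb, the interstitial progenitor markers Dpp4, Pi16 and Cd55, the surface markers Cd34 and Ly6a, the markers of more committed or other stromal populations Icam1 and F3, and the transcription factor Zfp423. They were found by gene symbol, and all 10 were present among the 54347 rows of the count table and passed the filter on low counts that left 18728 genes for testing. Polyadenylated RNA was sequenced from 3 fat depots, the interscapular brown (iBAT), the inguinal white (iWAT) and the epididymal white (eWAT) adipose tissue, of 6 mice, 3 wild type (wt) and 3 knockout (ko). All mice were C57BL/6N, 12 weeks old and on a chow diet, and the wt mice are described as litter mates of the line. The ko mice carried a CRISPR/Cas9 deletion that removes exon 1 of the long noncoding RNA gene Gm15551 in every tissue, in a line backcrossed to wild type mice. Whole tissue was used, so that adipocytes, vessels, leukocytes and stroma all contributed RNA. Each mouse gave 1 library per tissue, which made 6 libraries per tissue and 3 per tissue and genotype. The comparisons asked how these markers differ between the fat depots and whether the loss of Gm15551 is accompanied by a change in them.

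In white fat, progenitors that carry PDGFRα lie around vessels and in the connective tissue between lobules. Cells positive for DPP4, PI16 and CD55 sit in this interstitial tissue and can give rise to ICAM1-positive preadipocytes, while F3 encodes CD142, the mark of a stromal population that has been described as restraining adipocyte formation. Zfp423 is a zinc finger factor that commits cells to the adipocyte lineage and holds back the thermogenic programme. None of these genes is private to progenitors. Pdgfrb is also expressed by pericytes, Cd34 and Ly6a by endothelium and Icam1 by endothelium and leukocytes.

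The libraries held 14997901 to 34389586 estimated counts. Gm15551 reached 1.95 to 11.7 CPM, the count as parts of the TMM-scaled library size and the unit of level used here, in the wt libraries and at most 0.0971 CPM, or 4 counts, in the ko libraries. Ucp1, the uncoupling protein of brown adipocytes, reached 3422 to 7994 CPM in iBAT, at most 55.3 CPM in iWAT and at most 1.34 CPM in eWAT, and the mesothelial and visceral fat gene Wt1 passed 3 counts in eWAT alone. There were 4 libraries that stood apart through the genes of a neighbouring tissue, namely lymph node, skeletal muscle or epididymis. The summed lymph node genes reached 1211 CPM in iWAT wt replicate 3 and 520.1 CPM in iWAT ko replicate 2, and at most 24.3 CPM in any other library. The sum of the skeletal muscle genes was 4805 CPM for iWAT ko replicate 1, against at most 26.1 CPM elsewhere, and the sum of the epididymis genes was 4824 CPM for eWAT ko replicate 3, against at most 17.3 CPM elsewhere. Where these 4 libraries decided the call of a marker, the value without them is given in the same paragraph. The summed mesothelial genes also split the iWAT libraries. They were at 129.2 CPM in ko replicate 3, 84.9 CPM in ko replicate 2 and 61.5 CPM in wt replicate 3, against 6.26 to 9.28 CPM in the others. In eWAT they were at 713.7 CPM in ko replicate 3 and at 98.9 to 185.8 CPM elsewhere. The fits without the 4 libraries keep iWAT ko replicate 3.

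Markers of the other cells in the tissue also differed between the depots. The counts of genes that follow are by the edgeR test at an adjusted p under 0.05. Of all genes, 30.3% were lower and 24% were higher in iBAT than in iWAT, and 30.2% and 24.4% in iBAT than in eWAT. Between the white tissues, 5.7% of all genes were higher and 4.5% were lower in iWAT than in eWAT. All 8 leukocyte genes were lower in iBAT than in iWAT and eWAT, and their sum ran from 54.2 to 154.6 CPM in iBAT, from 253.7 to 2233 CPM in iWAT and from 387.2 to 751.9 CPM in eWAT. Of 10 mesothelial genes, 6 were lower and 1 was higher in iBAT than in iWAT, while eWAT exceeded iBAT for 9 of them and iWAT for 7. In iBAT, all 8 brown adipocyte genes were above both white tissues, whereas of 8 general adipocyte genes 5 were lower and 1 was higher. All 10 lymph node genes were higher in iWAT than in both other tissues (the other 4 iWAT libraries held sums of 8.09 to 24.3 CPM), of 10 skeletal muscle genes 5 were lower in iBAT than in iWAT, and 1 of 2 epididymis genes was higher in eWAT than in either other tissue. The counts of lymph node, muscle and epididymis genes include the 4 libraries that stood apart and were not recomputed without them. The part of these cells in the levels of the progenitor markers was not tested.

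Promoters are shown for F3, Icam1 and Cd34, because these members had 3 different patterns over the tissues: F3 was the only member higher in iBAT than in iWAT, Icam1 was highest in 2 of the iWAT libraries, and Cd34 was low in iBAT and at like levels in both white tissues. Of the 10 members, 8 had an entry in the RefSeq promoter table (GRCm38.p6). Each line gives the 250 bases before the RefSeq start site on the plus strand, 5′ to 3′. Capitals mark matches on either strand to the GC box GGGCGG, the TATA box TATAAA, the AP-1 motif TGANTCA, the kappaB-like motif GGANNTTCC or the EBF-like motif CCCNNGGG.
F3, chr3:121723287-121723536: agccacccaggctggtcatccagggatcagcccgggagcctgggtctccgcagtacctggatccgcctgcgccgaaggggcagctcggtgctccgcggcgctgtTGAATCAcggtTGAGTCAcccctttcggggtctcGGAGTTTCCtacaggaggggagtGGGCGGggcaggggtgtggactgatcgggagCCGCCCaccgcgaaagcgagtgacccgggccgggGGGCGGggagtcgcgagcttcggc
Icam1, chr9:21015690-21015939: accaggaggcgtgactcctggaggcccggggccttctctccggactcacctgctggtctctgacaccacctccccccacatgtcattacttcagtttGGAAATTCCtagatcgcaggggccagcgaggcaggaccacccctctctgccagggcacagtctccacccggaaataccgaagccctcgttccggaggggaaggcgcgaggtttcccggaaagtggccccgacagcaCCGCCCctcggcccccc
Cd34, chr1:194938571-194938820: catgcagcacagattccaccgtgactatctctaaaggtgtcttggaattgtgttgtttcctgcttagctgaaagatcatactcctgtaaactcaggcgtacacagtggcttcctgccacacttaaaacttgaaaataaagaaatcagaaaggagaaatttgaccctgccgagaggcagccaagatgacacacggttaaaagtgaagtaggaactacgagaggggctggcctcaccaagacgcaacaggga
In these windows, F3 held 3 GC boxes, 2 AP-1 motifs, which begin 146 and 135 bases before the start, and 1 kappaB-like motif at 112 bases. Icam1 held 1 GC box and 1 kappaB-like motif, at 153 bases before the start, and the Cd34 window held none of the 5 motifs. Of 32841 windows of the same length in the table, 32.7% held a GC box, 12.4% a TATA box, 6.75% an AP-1 motif, 3.59% a kappaB-like motif and 11.8% an EBF-like motif. These matches describe the letters of the windows and say nothing about binding in these tissues.

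Most of the markers were lower in iBAT than in iWAT. By edgeR's quasi-likelihood F-test, 8 of the 10 members were lower and 1 was higher in iBAT at a Benjamini-Hochberg adjusted p under 0.05 over all 18728 genes, where 30.3% of all genes were lower and 24% were higher. Against eWAT, 6 members were lower and 0 were higher in iBAT, beside 30.2% and 24.4% of all genes. Between the white tissues, 5 members were higher and 1 was lower in iWAT than in eWAT, beside 5.7% and 4.5% of all genes. These 6 calls between the white tissues became 3 without the iWAT pair with lymph node genes and 3 without the 4 libraries that stood apart. They became 4 with the mouse in the fit and 0 in the wild type libraries alone, with 3 libraries per tissue. On library totals alone, that is with no TMM factor, they became 4, beside 5.01% of all genes higher and 6.42% lower in iWAT. The shares of all genes in the other settings are not given here, so that a lower count there is no result about the markers. The median log2 fold change of the 10 members was -2.06 for iBAT against iWAT, -1.12 for iBAT against eWAT and 0.71 for iWAT against eWAT, compared with -0.14, -0.17 and 0.01 over all genes. The iBAT contrasts depend on the scaling. Mitochondrial genes took 22.9 to 27.0% of the counts in iBAT and 3.77 to 9.64% in the white tissues, and iBAT libraries received TMM factors of 0.617 to 0.744, compared with 1.06 to 1.44 for the white tissues. On library totals alone, the log2 fold changes of all genes had a median of -0.95 for the contrast of iBAT with iWAT and -1.04 for that with eWAT, with 68.4% of genes lower and 7.68% higher in the former and 70.3% and 8.43% in the latter. There 9 members were lower and 1 was higher in iBAT than in iWAT, and 8 were lower and 0 were higher in iBAT than in eWAT. In bulk tissue, fewer cells of a type and less RNA per cell cannot be told apart.

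**Figure D1:**
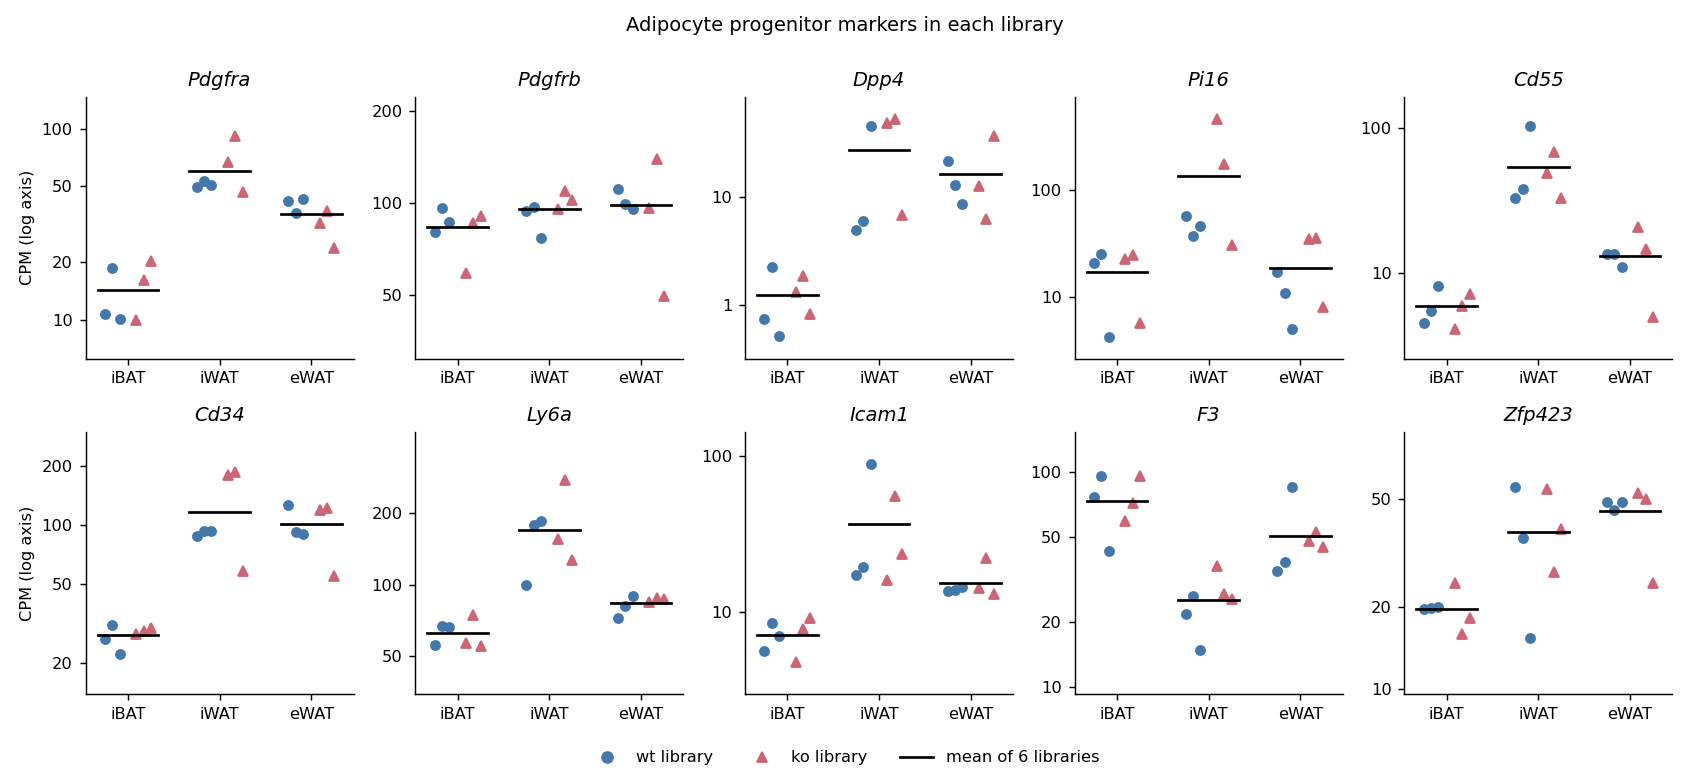
Scaled CPM (log axis, a different range in each panel) of the 10 markers in the 18 libraries by tissue, with wt libraries as circles, ko libraries as triangles and the mean of 6 libraries as a line. All 6 iBAT libraries lay below all 6 iWAT libraries for Pdgfra, Dpp4, Pi16, Cd55, Cd34, Ly6a and Icam1, and above them for F3. The share of all genes with such a separation was not computed. By the edgeR test, 30.3% of all genes were lower and 24% were higher in iBAT than in iWAT.

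The PDGF receptors differed from each other. Pdgfra (chromosome 5, 75152292 to 75198215, plus strand, GRCm38) encodes PDGFRα, the receptor tyrosine kinase that marks most adipocyte progenitors, and its CPM ran from 10.02 over a median of 13.4 to 20.3 in iBAT, from 46.7 over 52.2 to 91.9 in iWAT and from 23.7 over 36.5 to 43.0 in eWAT. These 3 ranges did not overlap, and the order iWAT, eWAT, iBAT held in every mouse. The log2 fold change was -2.06 ± 0.23 (SE, adjusted p = 1.07e-06) for iBAT against iWAT and -1.33 ± 0.22 (adjusted p = 8.33e-05) for iBAT against eWAT. For iWAT against eWAT it was 0.74 ± 0.22 (adjusted p = 0.0405), and this call did not hold once the mouse entered as a block (adjusted p = 0.0612) and in 10 of the 18 fits that left out 1 library, in which the adjusted p reached 0.108. It was also lost on library totals alone (0.69, adjusted p = 0.0653). Without the 4 libraries that stood apart it was 0.39 (adjusted p = 0.294).

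Pdgfrb (chromosome 18, 61045150 to 61085061, plus strand), the receptor that is also carried by pericytes, had overlapping ranges in the 3 tissues on the TMM scale. It ran from 58.9 over a median of 86.3 to 96.1 CPM in iBAT, from 76.8 over 96.3 to 110 CPM in iWAT and from 49.3 over 97.7 to 140 CPM in eWAT. None of the tissue contrasts passed the test, with log2 fold changes of -0.21 ± 0.18, -0.25 ± 0.18 and -0.04 ± 0.18 and adjusted p of 0.352, 0.266 and 0.925. The lowest eWAT value came from ko replicate 3, the library with epididymis genes, and without it Pdgfrb was lower in iBAT than in eWAT by 0.39 on the log2 scale (adjusted p = 0.0203). On library totals alone, Pdgfrb was at 36.3 to 65.5 CPM in iBAT, below all iWAT libraries at 102.2 to 139.9 CPM and all eWAT libraries at 68.8 to 167.7 CPM, and it was lower in iBAT, with log2 fold changes of -1.004 and -1.09 (edgeR, adjusted p = 0.000128 and 5.23e-05), close to the medians of all genes on that scale. Summed CPM of 9 mural cell genes ran from 907 to 1048 in iBAT, from 469.7 to 1018 in iWAT and from 580.5 to 1388 in eWAT, and their part in the level of Pdgfrb was not tested.

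The ratio of Pdgfra to Pdgfrb within a library set iBAT apart from the white tissues, whose ranges overlapped. On the log2 scale, with 0.1 CPM added to each gene, the ratio was -2.58 ± 0.36 (SD, n = 6) in iBAT, -0.71 ± 0.32 in iWAT and -1.43 ± 0.31 in eWAT. The difference was -1.86 between iBAT and iWAT and -1.15 between iBAT and eWAT, each the same way in 6 of 6 mice, with a p of 0.00216 (two-sided exact permutation test, the smallest p that 6 against 6 libraries can give) and an adjusted p of 0.00487 over the 9 ratio tests. Between iWAT and eWAT it was 0.71, higher in 5 of 6 mice (exact permutation, adjusted p = 0.00557). That last call was lost in the exact sign-flip test over mice (adjusted p = 0.0804) and without the 4 libraries that stood apart (adjusted p = 0.0536).

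Among the interstitial progenitor markers, Dpp4 showed the largest difference between tissues. Dpp4 (chromosome 2, 62330073 to 62412231, minus strand) encodes CD26, a peptidase of the cell surface. It ran from 0.517 over a median of 1.08 to 2.27 CPM in iBAT, which were only 8 to 35 counts, from 4.97 over 26.1 to 53.3 CPM in iWAT and from 6.28 over 12.9 to 37.0 CPM in eWAT. No iBAT library reached the lowest white library. In iBAT, the log2 fold change was -4.38 ± 0.71 (adjusted p = 7.35e-05) against iWAT and -3.70 ± 0.69 (adjusted p = 0.000259) against eWAT, and iWAT and eWAT were not distinguished (0.68 ± 0.60, adjusted p = 0.512), a difference that turned to -1.05 (adjusted p = 0.146) without the 4 libraries that stood apart.

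Within iWAT, Dpp4 fell into a low and a high set of libraries that crossed the genotypes. It was at 4.97, 6.01 and 6.93 CPM in wt replicates 1 and 2 and ko replicate 3, and at 45.2, 48.6 and 53.3 CPM in wt replicate 3 and ko replicates 1 and 2. The 3 high libraries were those that held lymph node or skeletal muscle genes. Their matrix genes, 8 genes of fibroblast matrix such as Col1a1 and Dcn, summed to 5660, 8494 and 13460 CPM, against 6386, 4675 and 4287 CPM in the low libraries. The part of the neighbouring tissue in the level of Dpp4 was not tested, and without the 4 libraries that stood apart the log2 fold change of iBAT against iWAT was -2.24 (adjusted p = 0.000596) and that against eWAT was -3.29 (adjusted p = 5.66e-06).

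**Figure D2:**
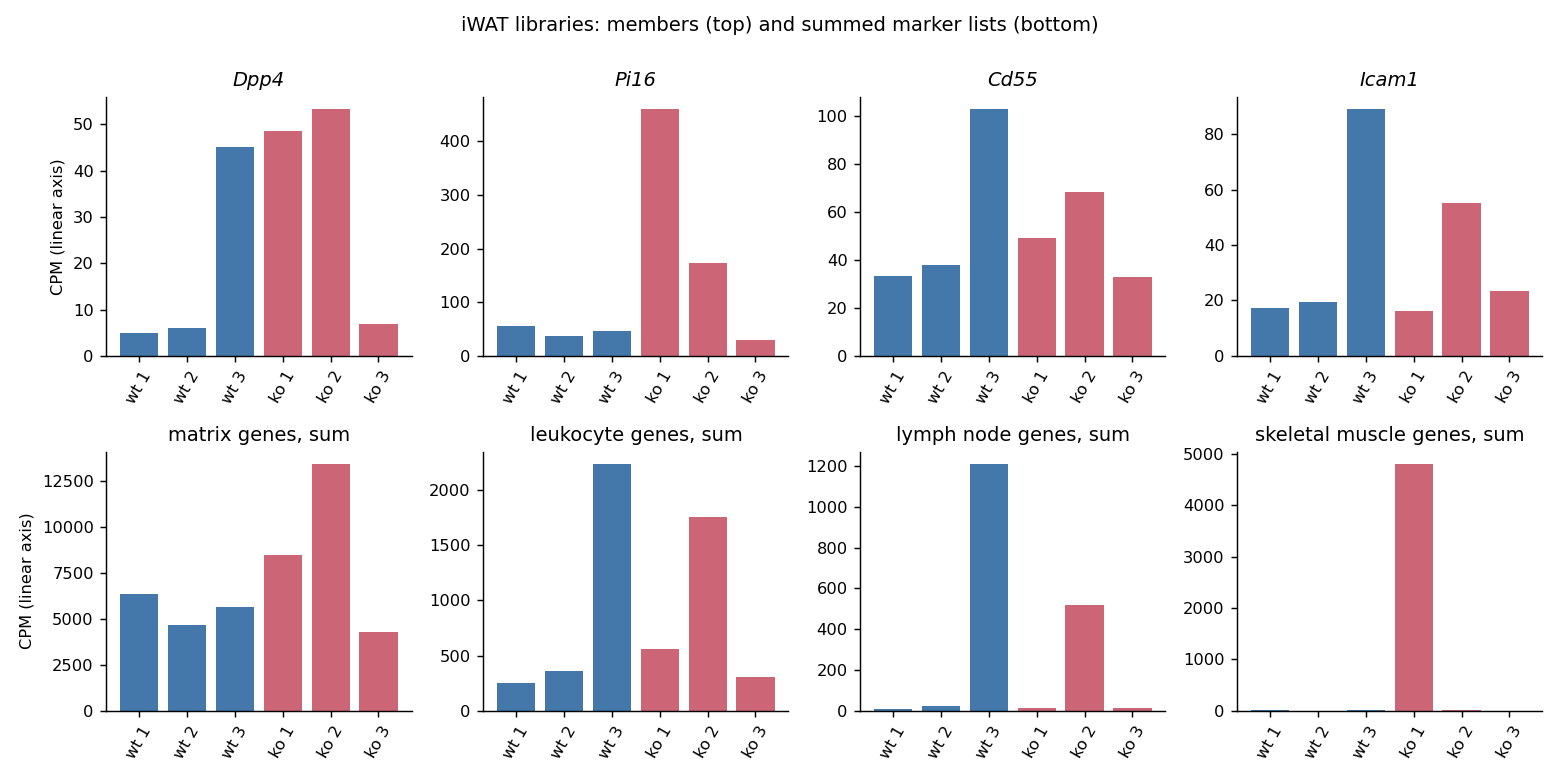
CPM (linear axes) of Dpp4, Pi16, Cd55 and Icam1 in the 6 iWAT libraries (top row) and the summed CPM of the matrix, leukocyte, lymph node and skeletal muscle genes in the same libraries (bottom row), 1 bar per library, wt in blue and ko in red. Icam1 was highest in wt 3 and ko 2, the libraries with 1211 and 520.1 CPM of lymph node genes, and Pi16 was highest in ko 1, the library with 4805 CPM of skeletal muscle genes.

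Pi16 (chromosome 17, 29317680 to 29330593, plus strand), a peptidase inhibitor that marks the most upstream progenitors and the fibroblasts of vessel walls, was the most variable member. It ran from 4.33 over a median of 21.8 to 25.6 CPM in iBAT, from 30.5 over 51.2 to 459.9 CPM in iWAT and from 5.09 over 14.1 to 35.5 CPM in eWAT. Its SD was 126% of its mean in iWAT, the widest relative spread of any member in any tissue. The 2 lowest libraries were the replicate 3 mice of both genotypes in iBAT, at 4.33 and 5.73 CPM, and the same 2 mice were lowest in eWAT, at 5.09 and 8.17 CPM.

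The log2 fold change of Pi16 was -2.55 ± 0.67 (adjusted p = 0.00411) for iBAT against iWAT and 2.66 ± 0.65 (adjusted p = 0.017) for iWAT against eWAT, each in 6 of 6 mice. It was 0.12 ± 0.63 (adjusted p = 0.889) for iBAT against eWAT, or -0.78 (adjusted p = 0.246) on library totals alone, so that Pi16 was high in iWAT alone while Dpp4 was low in iBAT alone. Without the 4 libraries that stood apart, neither contrast of Pi16 with iWAT passed the test, with log2 fold changes of -1.41 (adjusted p = 0.0589) and 1.21 (adjusted p = 0.249).

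Cd55 (chromosome 1, 130439027 to 130462744, minus strand) encodes decay-accelerating factor, which protects cells from complement. It ran from 4.15 over a median of 5.76 to 8.14 CPM in iBAT, from 32.9 over 43.5 to 103 CPM in iWAT and from 5.001 over 13.6 to 21.02 CPM in eWAT. The iWAT libraries lay above all others, whereas the ranges of iBAT and eWAT overlapped at the low end of eWAT. Cd55 had a log2 fold change of -3.18 ± 0.35 (adjusted p = 1.17e-06) for iBAT against iWAT, 2.03 ± 0.33 (adjusted p = 0.000916) for iWAT against eWAT and -1.15 ± 0.33 (adjusted p = 0.00753) for iBAT against eWAT. The highest value, in iWAT wt replicate 3, came from the library with most lymph node genes, and without the 4 libraries the contrasts with iWAT were -2.57 (adjusted p = 2.44e-07) and 1.25 (adjusted p = 0.00158).

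The other genes of the interstitial progenitors were mostly lower in iBAT. Of 18 such genes, 0 were higher and 14 were lower in iBAT than in iWAT, beside 24% and 30.3% of all genes, at a median log2 fold change of -2.44. The smallest p-values belonged to Creb5 (-3.03 ± 0.27), Efemp1 (-2.47 ± 0.27) and Cd248 (-3.09 ± 0.36), which encode a transcription factor, a matrix protein and a stromal surface protein. Against eWAT, 12 were lower and 0 were higher in iBAT, beside 30.2% and 24.4% of all genes, among them Sema3c (-4.04 ± 0.41), which encodes a secreted semaphorin. Between the white tissues, 4 were higher in iWAT, with Wnt2 (3.43 ± 0.61), Pcolce2 (1.85 ± 0.39) and Efhd1 (1.22 ± 0.33) ahead, and 0 were lower, beside 5.7% and 4.5% of all genes. The summed CPM of the 18 genes was 971.5 and 953.7 in iWAT ko replicates 1 and 2, both among the libraries that stood apart, and 385 to 462.4 in the other 4, within the eWAT range of 370 to 635.8. Counts of this list without those libraries were not computed.

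The surface markers Cd34 and Ly6a followed different patterns in the white tissues. Cd34 (chromosome 1, 194938819 to 194961279, plus strand) encodes a sialomucin of stromal progenitors and endothelium, and it ran from 22.2 over a median of 28.6 to 31.0 CPM in iBAT, from 58.8 over 93.6 to 187 CPM in iWAT and from 55.2 over 106 to 126 CPM in eWAT. All iBAT libraries lay below all white libraries, while iWAT and eWAT overlapped. Cd34 had a log2 fold change of -2.05 ± 0.26 (adjusted p = 5.15e-06) against iWAT and -1.87 ± 0.26 (adjusted p = 1.07e-05) against eWAT, and it was 0.18 ± 0.25 (adjusted p = 0.702) between the white tissues, or -0.46 (adjusted p = 0.108) without the 4 libraries that stood apart.

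Ly6a (chromosome 15, 74994877 to 74998031, minus strand), which encodes the stem cell antigen Sca-1, was highest in iWAT. It ran from 55.4 over a median of 61.4 to 74.7 CPM in iBAT, from 99.6 over 167 to 275 CPM in iWAT and from 72.6 over 85.3 to 89.3 CPM in eWAT. The iWAT libraries lay above all others, and the ranges of iBAT and eWAT overlapped in part. For Ly6a, the log2 fold change was -1.44 ± 0.18 (adjusted p = 4.76e-06) for iBAT against iWAT and 1.02 ± 0.18 (adjusted p = 0.00157) for iWAT against eWAT. For iBAT against eWAT it was -0.42 ± 0.18, lower in 6 of 6 mice, and missed the threshold (adjusted p = 0.0552), which it passed with the mouse in the fit (adjusted p = 0.0133), with at least 10 counts required in every library (adjusted p = 0.0259), without the 4 libraries (adjusted p = 0.0174) or the lymph node pair among them (adjusted p = 0.0105), and in 3 of the 18 fits that left out 1 library. On library totals alone it was -1.28 (adjusted p = 4.24e-05). The highest iWAT value of Ly6a came from ko replicate 2, and without the 4 libraries iBAT against iWAT was -1.11 (adjusted p = 4.46e-05) and iWAT against eWAT was 0.70 (adjusted p = 0.0126).

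The endothelial genes had no common direction between the tissues. Summed CPM of 8 endothelial genes ran from 944.2 to 1130 in iBAT, from 629.8 to 1016 in iWAT and from 561.4 to 1321 in eWAT, and of these genes 2 were higher and 1 was lower in iBAT than in iWAT, beside 24% and 30.3% of all genes, and 1 was higher and 3 were lower in iBAT than in eWAT, beside 24.4% and 30.2%. The part of endothelium in the levels of Cd34 and Ly6a was not tested. Ly6a also shares 19% of its 50-base words with other genes, chiefly Ly6c1 and Ly6i, so that its count depends on how reads were divided between them. The 18 libraries held 50361 counts of Ly6c1 and 180 of Ly6i, beside 45741 of Ly6a.

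Icam1 (chromosome 9, 21015985 to 21028817, plus strand) encodes an adhesion molecule of committed preadipocytes, endothelium and leukocytes. It ran from 4.78 over a median of 7.39 to 9.14 CPM in iBAT, from 16.1 over 21.4 to 89.0 CPM in iWAT and from 13.02 over 14.1 to 22.3 CPM in eWAT. Every white library lay above every iBAT library. In iBAT, the log2 fold change of Icam1 was -2.36 ± 0.40 (adjusted p = 0.000101) against iWAT and -1.10 ± 0.38 (adjusted p = 0.0231) against eWAT. Without the pair of iWAT libraries with lymph node genes, the former was -1.41 (adjusted p = 2.98e-05). The latter was lost without iBAT wt replicate 1, iBAT ko replicate 1 or eWAT ko replicate 2 (adjusted p = 0.0534 to 0.0588) and in the wild type libraries alone (-0.98, adjusted p = 0.219).

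Between the white tissues, Icam1 rested on a pair of libraries. It was at 89.0 and 55.3 CPM in the 2 iWAT libraries with lymph node genes and at 16.1 to 23.4 CPM in the other 4, which overlapped with eWAT. The log2 fold change of iWAT against eWAT was 1.26 ± 0.38 (adjusted p = 0.0442) with all libraries, 1.01 (adjusted p = 0.06) in the fit blocked by mouse, 1.31 (adjusted p = 0.0621) on library totals alone and 0.32 (adjusted p = 0.35) without that pair. Summed leukocyte genes were at 2233 and 1754 CPM in the same 2 libraries and at 253.7 to 558.1 CPM in the other iWAT libraries, and their part in the level of Icam1 was not tested.

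F3 (chromosome 3, 121723537 to 121735048, plus strand) encodes tissue factor, which starts the clotting cascade. On the TMM scale it was the only member that was highest in iBAT, where it ran from 42.7 over a median of 74.2 to 95.6 CPM, compared with 14.8 over 26.0 to 36.3 CPM in iWAT and 34.5 over 46.2 to 84.7 CPM in eWAT. The iBAT and iWAT ranges did not overlap, and eWAT overlapped with both. F3 had a log2 fold change of 1.55 ± 0.25 (adjusted p = 6.27e-05) for iBAT against iWAT and -1.005 ± 0.24 (adjusted p = 0.0163) for iWAT against eWAT, where it was -0.87 (adjusted p = 0.0599) without the lymph node pair. For iBAT against eWAT it was 0.54 ± 0.24 (adjusted p = 0.0671), and 0.81 (adjusted p = 0.00398) without eWAT wt replicate 3, which held the highest eWAT value. On library totals alone, F3 was still higher in iBAT than in iWAT (0.76, adjusted p = 0.00538), with overlapping ranges, and its difference from eWAT turned to -0.32 (adjusted p = 0.193).

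Of 8 other genes of CD142-positive cells, 5 were lower and 0 were higher in iBAT than in iWAT, beside 30.3% and 24% of all genes, led by Gdf10 (-3.43 ± 0.29), a growth factor of the BMP family, and Cygb (-1.08 ± 0.16), which encodes cytoglobin. Against eWAT, 4 of them were lower in iBAT and 0 were higher, beside 30.2% and 24.4% of all genes, and 2 of them, Fmo2 (-1.05 ± 0.18) and Mgp (-0.92 ± 0.27), were lower in iWAT than in eWAT, beside 4.5% of all genes. Of 12 genes of committed preadipocytes, 2 were higher and 3 were lower in iBAT than in iWAT, shares close to the 24% and 30.3% of all genes. Dlk1 (1.86 ± 0.35), the preadipocyte factor, was higher, while Ggt5 (-2.81 ± 0.13), a glutamyl transferase, and Col15a1 (-2.57 ± 0.42), a basement membrane collagen, were lower. Against eWAT, 3 were higher and 6 were lower in iBAT, beside 24.4% and 30.2% of all genes. Between the white tissues 2 were higher in iWAT, Cxcl14 (2.85 ± 0.50) and Ggt5 (0.44 ± 0.12), and 0 were lower, beside 5.7% and 4.5% of all genes. Summed CPM of the 12 genes ran from 20080 to 24020 in iBAT and from 13460 to 30360 in iWAT. The 8 general adipocyte genes summed to 10660 to 13160 CPM and 12990 to 30410 CPM there. The part of adipocytes in the levels of the 12 genes was not tested.

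The ratios of Dpp4 to Icam1 and to F3 both differed between iBAT and the white tissues. The log2 ratio of Dpp4 to Icam1 was -2.54 ± 0.77 (SD, n = 6) in iBAT, -0.77 ± 1.33 in iWAT and -0.11 ± 1.14 in eWAT, and that of Dpp4 to F3 was -5.86 ± 0.65, -0.52 ± 1.70 and -1.78 ± 1.22. The differences of iBAT from iWAT and eWAT were -1.77 and -2.43 for the former (exact permutation, adjusted p = 0.00557 each) and -5.35 and -4.08 for the latter (exact permutation, adjusted p = 0.00487 each), each the same way in 6 of 6 mice. Neither ratio differed past the threshold between the white tissues (exact permutation, adjusted p = 0.394 and 0.192). Without the 4 libraries that stood apart, the difference of Dpp4 to Icam1 between iBAT and iWAT was -0.81 (exact permutation, adjusted p = 0.138).

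**Figure D3:**
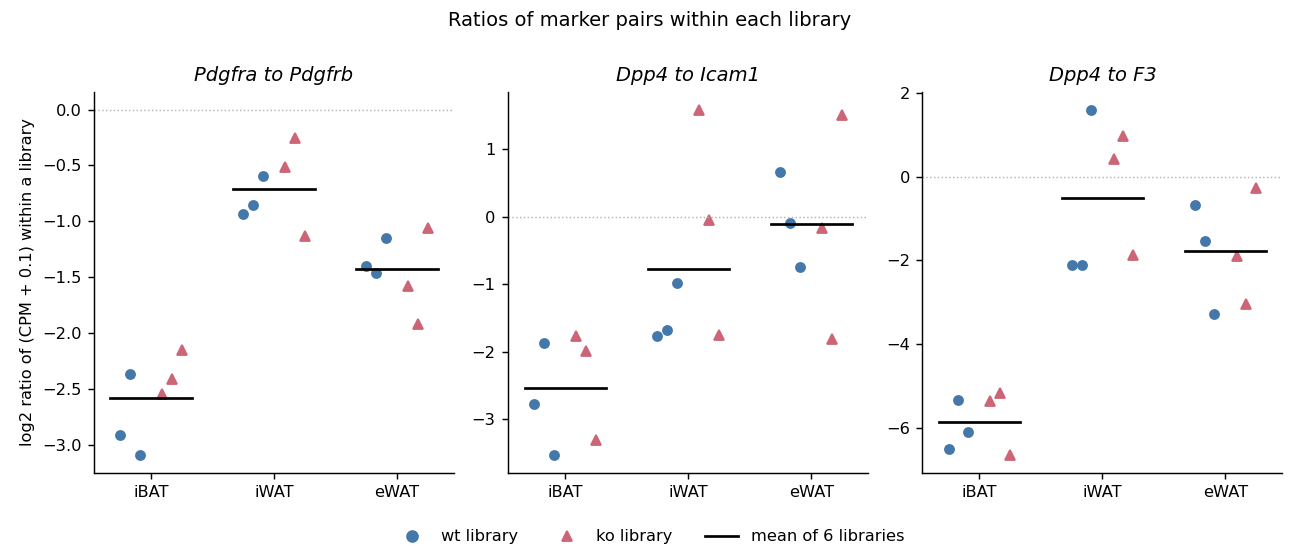
Log2 ratio of (CPM + 0.1) of Pdgfra to Pdgfrb, Dpp4 to Icam1 and Dpp4 to F3 within each library, with wt libraries as circles, ko libraries as triangles and the mean of 6 libraries as a line. The mean of all 3 ratios was lowest in iBAT, and the white libraries spread widely in the ratios of Dpp4, with an SD of 1.33 to 1.70 in iWAT.

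Zfp423 (chromosome 8, 87661810 to 87959595, minus strand) was lower in iBAT than in both white tissues. It ran from 15.9 over a median of 19.7 to 24.5 CPM in iBAT, from 15.3 over 37.4 to 55.1 CPM in iWAT and from 24.5 over 48.9 to 52.6 CPM in eWAT. The iBAT range overlapped with iWAT through wt replicate 3, at 15.3 CPM, and with eWAT through ko replicate 3, at 24.5 CPM. For Zfp423, the log2 fold change was -0.94 ± 0.26 (adjusted p = 0.00539) against iWAT, -1.20 ± 0.26 (adjusted p = 0.000894) against eWAT and -0.25 ± 0.25 (adjusted p = 0.572) between the white tissues. Both of these white libraries were among the 4 that stood apart, and without the 4 the log2 fold change was -1.14 (adjusted p = 1.23e-05) against iWAT and -1.33 (adjusted p = 3.84e-07) against eWAT.

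Of 9 partners and relatives of Zfp423, 3 were higher and 4 were lower in iBAT than in iWAT, beside 24% and 30.3% of all genes, and the same counts held against eWAT, beside 24.4% and 30.2%. With 9 genes, these shares are near those of all genes. The relative Zfp521, a zinc finger factor of stromal cells, was lower in iBAT than in iWAT (-2.51 ± 0.32) and eWAT (-2.19 ± 0.31), as was the BMP signal transducer Smad1 (-0.76 ± 0.11 and -1.20 ± 0.11). Ebf2, an early B cell factor of brown adipocyte precursors, was higher in iBAT than in iWAT (0.82 ± 0.21), and Ebf3, its relative, higher than in eWAT (1.75 ± 0.23). Between the white tissues, Ebf3 (1.07 ± 0.22) and Prdm16 (1.18 ± 0.31), a regulator of thermogenic fat, were higher in iWAT, and Smad1 (-0.43 ± 0.11) was lower.

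Of 5 genes of the PDGF ligands and their relatives, 1 was higher and 3 were lower in iBAT than in iWAT, beside 24% and 30.3% of all genes, and the same counts held against eWAT, beside 24.4% and 30.2%. Pdgfc, a ligand of PDGFRα, was lower by 2.03 ± 0.24 and 1.97 ± 0.24 on the log2 scale, and Pdgfd, a ligand of PDGFRβ, was higher by 1.03 ± 0.28 and 1.41 ± 0.28. Pdgfa, another ligand of PDGFRα, was lower in iBAT than in eWAT (-0.93 ± 0.16) and was the 1 gene of the list that differed between the white tissues, where it was lower in iWAT (-0.51 ± 0.15). The receptor-like gene Pdgfrl was lower in iBAT than in iWAT (-1.23 ± 0.27).

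**Figure D4:**
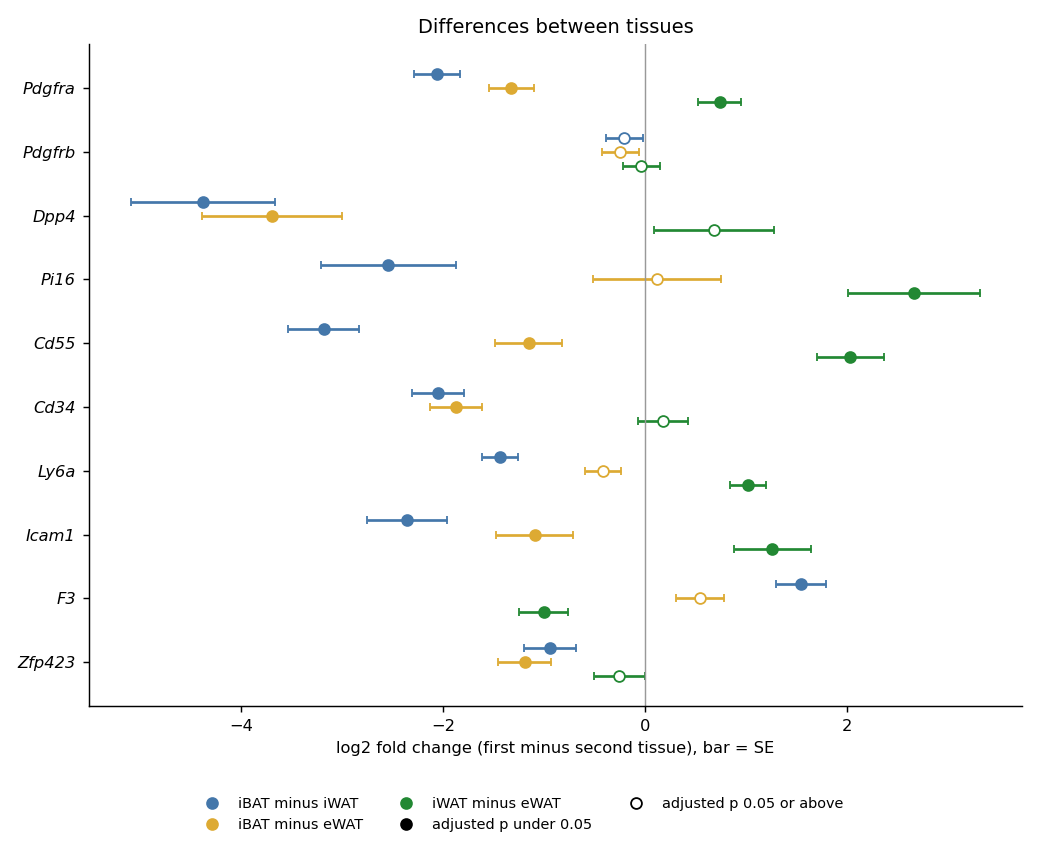
Log2 fold change with its standard error (bars) of each marker for iBAT against iWAT, iBAT against eWAT and iWAT against eWAT, from 6 libraries per tissue. Filled points passed an adjusted p of 0.05, which held for 9, 6 and 6 of the 10 members, and F3 lay opposite to the other called members in iBAT against iWAT and in iWAT against eWAT.

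Levels can be compared between the members only per length. Per kilobase of exon, Ly6a had the highest level in all 3 tissues, with 51.9 ± 6.61 CPM per kb (SD, n = 6) in iBAT, 141 ± 50.3 in iWAT and 69.4 ± 5.04 in eWAT. The mean of Dpp4 was the lowest in all 3 tissues, with 0.2 ± 0.11, 4.35 ± 3.76 and 2.62 ± 1.79 CPM per kb, although in eWAT it lay within the spread of Cd55 (2.72 ± 1.07) and Pi16 (2.93 ± 2.12) and in iWAT within that of Pdgfra (5.98 ± 1.72). In iBAT, F3 (29.1 ± 8.17) and Pdgfrb (15.2 ± 2.36) came next below Ly6a, and Pdgfra was at 1.43 ± 0.46. In iWAT, Pdgfrb (17.5 ± 2.01), Cd34 (16.0 ± 7.29), Cd55 (11.2 ± 5.66) and F3 (10.03 ± 2.79) followed Ly6a, the last 3 of them within their spread of one another. Pi16 had a mean of 21.04 ± 26.4 there, which rests on ko replicate 1 and gives it no place in the order. In eWAT, F3 (19.9 ± 7.14), Pdgfrb (17.98 ± 5.35) and Cd34 (13.9 ± 3.76) did so.

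Because the matrix genes of fibroblasts also differed between tissues, each member was set against their sum in the same library. All 8 matrix genes were lower in iBAT than in iWAT and eWAT, and their sum ran from 683.9 to 1121 CPM in iBAT, from 4287 to 13460 CPM in iWAT and from 1609 to 3648 CPM in eWAT. Relative to this sum, 6 members were higher and 0 were lower in iBAT than in iWAT, and 8 were higher and 1 was lower in iBAT than in eWAT (two-sided exact permutation tests, adjusted over 30 tests). Most genes moved the same way against this sum: by the same exact test, adjusted over all 18728 genes, 89.1% were higher and 0.39% were lower in iBAT than in iWAT, and 74.3% were higher and 3.16% were lower in iBAT than in eWAT. The count of members that were higher is therefore no result about them. Relative to Dcn, Lum and Fbln1 alone, Pdgfra no longer passed against iWAT (0.24, exact permutation, adjusted p = 0.270) and Cd55 was lower (-0.75, exact permutation, adjusted p = 0.0390). Against eWAT, Pi16 was lost in 7 and Pdgfra in 4 of the 18 tests that left out 1 library. Without the 4 libraries that stood apart, Icam1 was higher in iBAT than in iWAT (1.04, exact permutation, adjusted p = 0.0275), and Pi16 against eWAT missed the threshold (1.74, exact permutation, adjusted p = 0.0502). The median over all genes was 2.79 and 1.63 on the log2 scale. F3, whose differences relative to the matrix sum were 4.45 and 2.35, lay above it, Pdgfrb, with differences of 2.71 and 1.596, lay near it, and Pdgfra, at 0.84 and 0.44, and Cd34, at 0.97 and -0.02, lay below it. The distance of a member from this median was not tested. Dpp4 was the one member lower relative to the matrix sum in iBAT than in eWAT, by -1.73 (exact permutation, adjusted p = 0.0153), or -0.997 with 1 CPM added in place of 0.1 (exact permutation, adjusted p = 0.0847), and against iWAT it differed by -0.90 (exact permutation, adjusted p = 0.211). Without the collagens, its difference from eWAT was -1.09 (exact permutation, adjusted p = 0.0988) and that from iWAT -1.50 (exact permutation, adjusted p = 0.0433).

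Between the white tissues, 1 member was higher and 4 were lower in iWAT relative to the matrix sum, beside 0.758% and 65.4% of all genes, whose median was -1.12. Cd55 was higher (0.88, exact permutation, adjusted p = 0.0153, or 0.69 and 0.0502 without the 4 libraries that stood apart), and F3 (-2.10), Zfp423 (-1.47), Pdgfrb (-1.11) and Cd34 (-0.99) were lower (exact permutation, adjusted p = 0.004995 each). Without the collagens in the sum, F3 moved from -2.10 to -0.86 (exact permutation, adjusted p = 0.0342), while Cd34 turned from -0.99 to 0.25 and Pdgfrb from -1.11 to 0.13, both no longer past the threshold, and Zfp423 was at -0.22 (exact permutation, adjusted p = 0.612). Pdgfra turned from -0.40 to 0.84 in that contrast (exact permutation, adjusted p = 0.00433), and Ly6a to 1.06 (exact permutation, adjusted p = 0.0122). Pi16 moved from 1.29, which did not pass, to 2.53, and Cd55 from 0.88 to 2.12 (exact permutation, adjusted p = 0.00433 each). Cd34 in iBAT against eWAT turned from -0.02 to 0.61 (exact permutation, adjusted p = 0.00433). With the mouse as a block, the exact sign-flip test over 6 mice cannot go below a p of 0.0312, and 0 of the 30 comparisons passed after adjustment.

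Across the 18 libraries, which came from 6 mice and share tissue and depth, the genes most alike to each member in log2 CPM were named as a description. Pdgfra was most alike to Ifih1 (Pearson r = 0.979), an RNA sensor, and to the collagen gene Col1a2 (0.975). Dpp4 was most alike to Susd1 (0.952), Pi16 to Fndc1 (0.95) and Slc8a3 (0.899), and Cd55 to the stromal surface marker Thy1 (0.956) and Arpc1b (0.955). For Cd34 these were Olfml2b (0.99) and Serpinb6a (0.987), and for Ly6a the interferon-induced genes Oas1a (0.963) and Oas2 (0.963). Icam1 was most alike to the leukocyte genes Rgs1 (0.98) and Slfn2 (0.979). For F3 the closest were Stim1 (0.955), a calcium sensor, and AC151478.3 (0.888), and for Zfp423 Ermp1 (0.977) and Ywhab (0.972). Pdgfrb had the weakest best likeness, with Tal1 (0.873) and Mecom (0.837), transcription factors that endothelial cells express. Among the members themselves, the highest correlation was that of Pdgfra with Cd34 (0.914) and the lowest that of Cd55 with F3 (-0.826).

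The loss of Gm15551 was not accompanied by a detectable change in any of the markers. With the edgeR test, 0 of the 10 members differed between ko and wt across tissues, where 0.00534% of all genes did. Within the tissues, the count was 0 of 10 in iBAT, iWAT and eWAT, beside 0%, 0% and 0.00534% of all genes. In iBAT and iWAT no gene passed, so that the deleted Gm15551 did not either. It held 40 to 68 counts in wt and 0 in ko in iBAT, and 59 to 316 counts in wt and at most 1 in ko in iWAT. A count of 0 within a tissue therefore does not show that a marker was unchanged. The genotype effect did not differ between tissues for any member either, with 0 of 10 past the joint interaction test, beside 0% of all genes. DESeq2 also called 0 members in each of these comparisons. At an unadjusted p under 0.05, there was 1 member across tissues and 1 in iWAT, Pi16 in both cases, and 0 in iBAT, in eWAT and in the interaction. The ko and wt libraries overlapped for all 10 members in each tissue, where 4.94%, 4.92% and 5.25% of all genes did not overlap in iBAT, iWAT and eWAT. For 10 genes a count of 0 is near these shares, so that the overlap is no result about the members.

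**Figure D5:**
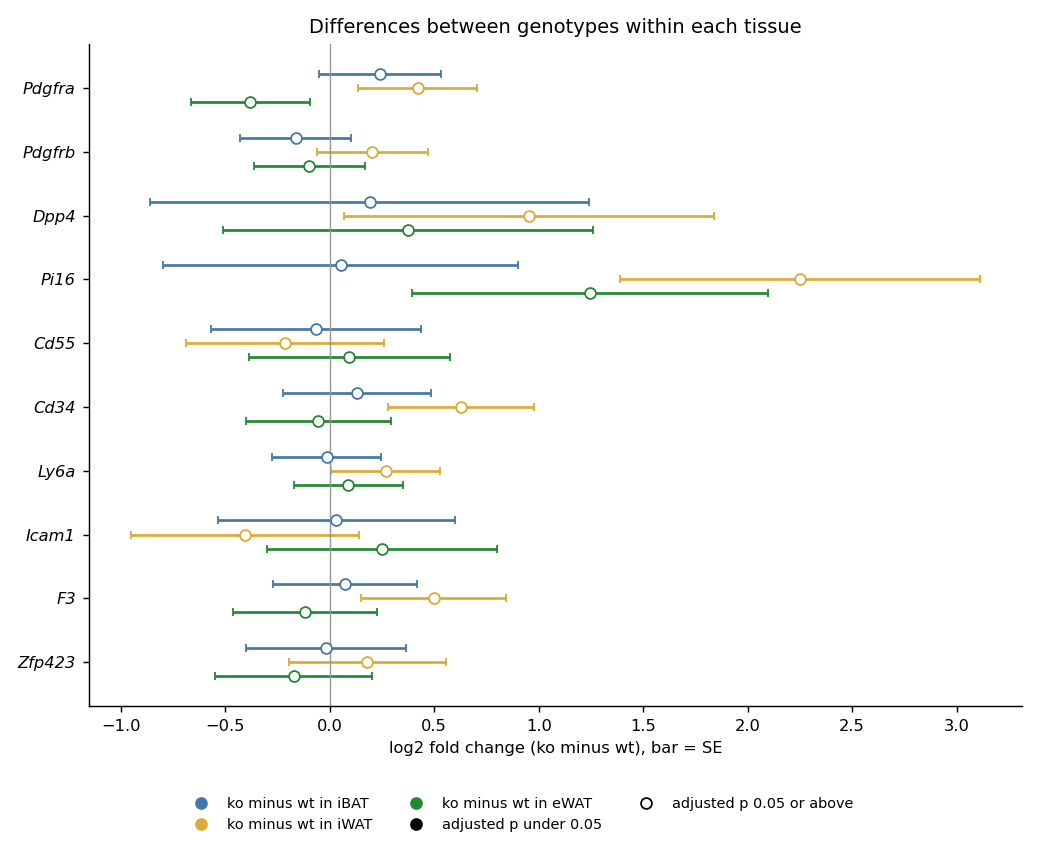
Log2 fold change of ko against wt with its standard error (bars) for each marker within iBAT, iWAT and eWAT, from 3 libraries per group. No point passed an adjusted p of 0.05, and Pi16 in iWAT lay farthest from 0, at 2.25 ± 0.86.

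Pi16 had the widest difference between genotypes. In iWAT it was at 56.6, 37.2 and 45.8 CPM in wt and at 459.9, 173.5 and 30.5 CPM in ko replicates 1 to 3, so that the ko libraries held both the highest values and the lowest. The log2 fold change was 2.25 ± 0.86 in iWAT (edgeR, adjusted p = 1.0) and 1.21 ± 0.53 across tissues (adjusted p = 0.9999). Without ko replicate 1, the library with skeletal muscle genes, it was 1.13 in iWAT. Without all 4 libraries that stood apart, which leaves ko replicate 3 as the only ko library of iWAT, it was -0.62. In eWAT, Pi16 was at 17.2, 10.9 and 5.09 CPM in wt and at 35.1, 35.5 and 8.17 CPM in ko, a log2 fold change of 1.25 ± 0.85.

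For the other members, the log2 fold change of ko against wt lay between -0.16 and 0.24 in iBAT, between -0.41 and 0.95 in iWAT and between -0.38 and 0.37 in eWAT. The outermost values in iWAT were 0.95 ± 0.89 for Dpp4 and -0.41 ± 0.55 for Icam1, the members whose iWAT levels moved with the libraries that stood apart. Leaving out 1 library at a time moved Dpp4 between 0.51 and 2.72 and Icam1 between -1.08 and 0.79. The precision differed between members: across tissues the SE was 0.14 for Ly6a, 0.15 for Pdgfrb, 0.18 for Pdgfra and 0.51 for Dpp4. That fit took the libraries of 1 mouse as independent. Within iWAT the SE was 0.26 for Ly6a, 0.27 for Pdgfrb, 0.29 for Pdgfra, 0.47 for Cd55, 0.55 for Icam1 and 0.89 for Dpp4. With 3 mice per group, smaller differences between genotypes could have been missed for any member. For Dpp4 and Pi16 only large ones could have been seen. Of the 18 interstitial progenitor genes, 0 differed between genotypes in any comparison. Their summed CPM in iWAT was 971.5 and 953.7 in ko replicates 1 and 2, 385 in ko replicate 3 and 418 to 462.4 in wt, which was the same pair of high ko libraries as for Pi16.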

How the data were processed

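The samples were 18 libraries of polyadenylated RNA, from 3 tissues of 6 mice, grouped by the tissue and genotype in their labels, and the replicate number with the genotype named the mouse. Reads were filtered for quality by the authors with cutadapt, and salmon assigned them to GENCODE M22 transcripts, alone or with RNAcentral. Which reference made this table, whether strand was used, and how transcripts were summed to genes, are not given in the sources used here. The deposited table holds estimated counts per gene as whole numbers, not normalised. Symbols came from the table, and GENCODE M21 (GRCm38) gave coordinates and exon lengths.

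Genes were filtered with filterByExpr by group and scaled by TMM. Quasi-likelihood F-tests of edgeR 4.0.16 (R 4.3.3) were run on all 18728 genes, with tissue and genotype as terms between tissues and across-tissue genotype, and with a mean per group for genotype within tissues and the interaction. P-values were adjusted by Benjamini-Hochberg over all genes. The tests were also tried on simulated data, with results that are not given here. Relations to the matrix sum and ratios used log2(CPM + 0.1) and two-sided exact permutation tests in Python 3.11.15. DESeq2 1.42.0 and library totals without TMM factors were alternatives. Libraries of 1 mouse entered the main fits as independent. The mouse pairs the libraries of the 3 tissues by its identifier in the labels, although deviations from group means correlated only weakly within a mouse (-0.165 to 0.326 over 18 pairs, median 0.057).

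All 10 members were named. Other genes were the up to 3 with the smallest p-value per contrast in 6 lists (PDGF ligands, interstitial, committed and CD142-positive cells, Zfp423 partners, matrix), and the 2 most alike by Pearson correlation, of which 1 is not reported here. Another 9 lists marked other cells and adipocytes. Members and lists were chosen with earlier results of these data known. With 14997901 to 34389586 counts per library, 3 counts, the smallest level taken as detected, were 0.0727 to 0.235 TMM-scaled CPM, which covers counting error only.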

Additional observations from a re-analysis of the deposited data

Results flagged for a closer look

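Single libraries stood far from the other 5 of their tissue in 4 of the 30 combinations of marker and tissue, by the gap to the nearest library relative to the whole range (Dixon's test at 95%), where chance alone gives about 1.5. Pi16 reached 459.9 CPM in iWAT ko replicate 1, the library with skeletal muscle genes, and the next library was at 173.5 CPM. Icam1 was at 22.3 CPM in eWAT ko replicate 2, the deepest library, and the next was at 14.5 CPM. F3 was at 84.7 CPM in eWAT wt replicate 3, with the next at 52.4 CPM. Zfp423 was lowest at 24.5 CPM in eWAT ko replicate 3, the library with epididymis genes, and the next lowest was at 45.6 CPM.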

How the results depend on the processing

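Against iWAT, 9 markers were called in iBAT (7 to 10 under every alternative), and against eWAT it was 6 (4 to 8). Between the white tissues it was 6, and 4 to 6 when each library was left out in turn, but 3 in a test against an absolute log2 fold change over 0.5, 0 with wild type libraries only (3 per tissue), 3 without the pair of iWAT libraries with lymph node genes and 3 without the 4 libraries that stood apart, both of the last chosen after seeing the data. Library totals alone in place of TMM, also chosen then, gave 10, 8 and 4 calls and changed the call of 5 of the 70 values of single members and the direction of 2 others, which passed under neither scaling. With the mouse as a block, the counts were 9, 7 and 4. Apart from library totals alone, the shares of all genes called under these alternatives are not given here. A lower count of markers is therefore no result about them. Genotype and interaction counts were 0 under every alternative run, the replicate number as a block included. The labels do not say that same-numbered wt and ko mice share a litter, although their identifiers lie close together, and the libraries' deviations correlated from -0.465 to 0.551 over 9 such pairs. With that block, Pi16 was 1.51 in iWAT and 0.92 across tissues (adjusted p by edgeR of 1 and 0.9997).

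Of 30 comparisons relative to the matrix sum, 20 passed, 0 did with the mouse block, and 21 did relative to Dcn, Lum and Fbln1 only. With those 3 genes, 8 values turned direction. These were Pdgfra (0.84), Pdgfrb (0.13), Dpp4 (0.41), Cd34 (0.25), Ly6a (1.06) and Icam1 (1.07) in iWAT against eWAT, Cd34 (0.61) in iBAT against eWAT and Pi16 (-0.16) in iBAT against iWAT. Of 9 ratios, 7 passed, 6 with the mouse block and 5 without the 4 libraries.

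Depth limited Dpp4 in iBAT, with 8 to 35 counts.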
